A study of Drosophila melanogaster with 72 samples.

Results

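The glycolytic enzyme genes are the 10 fly genes named from a fixed list of the pathway between glucose phosphate and pyruvate: Pgi, Pfk, Ald, Tpi, Gapdh1, Gapdh2, Pgk, Pglym78, Eno and PyK. All 10 were found by symbol among the 15682 genes that the count tables list, and all 10 passed the filter on low counts in each experiment. The membership rule used gene names and no measured value, but the list was chosen with earlier results of these data known. RNA of skeletal muscle of Drosophila melanogaster was sequenced in 72 libraries.

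The age experiment held 18 libraries, 3 for each of O1, O3 and B3 at 6 weeks and at 1 week of age. O1 and O3 are strains with delayed aging and B3 is the parental strain. A day course sampled the strains at 4 points of the lighting schedule, named in hours of zeitgeber time (ZT) as ZT0, ZT6, ZT12 and ZT18, with 10 libraries of O1, 11 of O3 and 10 of B3. A further day course compared mhc>timeless flies, in which a driver from the muscle myosin gene Mhc expresses the clock gene timeless (tim) in muscle, with mhc flies that carry the Mhc-Gal4 driver alone (11 and 12 libraries). Groups of the day courses held 3 libraries, but O1 had only 1 at ZT18, and mhc>timeless at ZT0, O3 at ZT6 and B3 at both ZT6 and ZT18 had 2. At what hour the age libraries were taken, how old the day-course and transgenic flies were and which muscle was used are not in the labels. Nor is it stated that replicates are different flies or cultures. The p-values therefore cover the spread between these libraries, and that spread may be technical.

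Glycolysis breaks glucose phosphate down to pyruvate and yields ATP and NADH. In the flight muscle of flies it runs fast alongside a dense set of mitochondria, and NADH is reoxidised mainly by the glycerol phosphate shuttle and little by lactate dehydrogenase. Carbon enters the pathway from trehalose and from glycogen.

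Depth was 15.5 to 35.7 M counts a library in the age experiment, 39.5 to 90.0 M over the strain day course, and 53.1 to 170 M for the transgenic flies. Every glycolytic gene had at least 210 CPM (counts relative to effective library size) in each library, so none was near the limit of detection. All 16 muscle markers had counts in every group of the age experiment. Testis markers summed to 261 and 290 CPM in libraries 2 and 3 of O1 at 1 week and to 404 and 1126 CPM in libraries 1 and 2 of O3 at 1 week, against 3.01 CPM in the remaining library of each of those groups and 1.65 to 202 CPM in the other age groups. In the transgenic flies tim averaged 1231 ± 25.6, 1018 ± 166, 1192 ± 192 and 1553 ± 82.9 CPM in mhc>timeless at ZT0, ZT6, ZT12 and ZT18, against 284 ± 11.3, 149 ± 6.06, 273 ± 11.4 and 778 ± 35.6 CPM in mhc (SD). The log2 fold difference was 2.00 ± 0.0529 (SE) over the day.

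The first question was how expression of the pathway changes with age in each strain. All 10 glycolytic genes were lower at 6 weeks than at 1 week in O1, in O3 and in B3, and no library of a 6-week group overlapped the 1-week group of its strain for any of them. A gene was called when its edgeR quasi-likelihood test had an adjusted p under 0.05 over all genes tested. By that rule all 10 were called lower in each strain, where 12.4% of all genes tested were called lower in O1, 27.4% in O3 and 20% in B3. The median log2 fold change of the 10 genes was -1.14 in O1, -1.29 in O3 and -1.18 in B3, beside -0.03, 0.00 and -0.03 over all genes tested. Of all genes tested, 17.4% in O1, 19.6% in O3 and 29.6% in B3 were lower without overlap. Scaling by library totals in place of TMM factors shifted the median of all genes by 0.182, 0.153 and 0.0949 (log2) in O1, O3 and B3 and made 83.5%, 64% and 67.2% of the called genes higher, beside 45.6%, 45.4% and 52.2% with TMM, and all 10 glycolytic genes were called lower under both scalings. The share of all counts that the 10 genes took was 1.10% at 6 weeks against 2.32% at 1 week in O1, 1.13% against 2.73% in O3, and 0.819% against 2.54% in B3. In bulk tissue, fewer muscle cells and less RNA per muscle cell cannot be told apart.

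**Figure D1:**
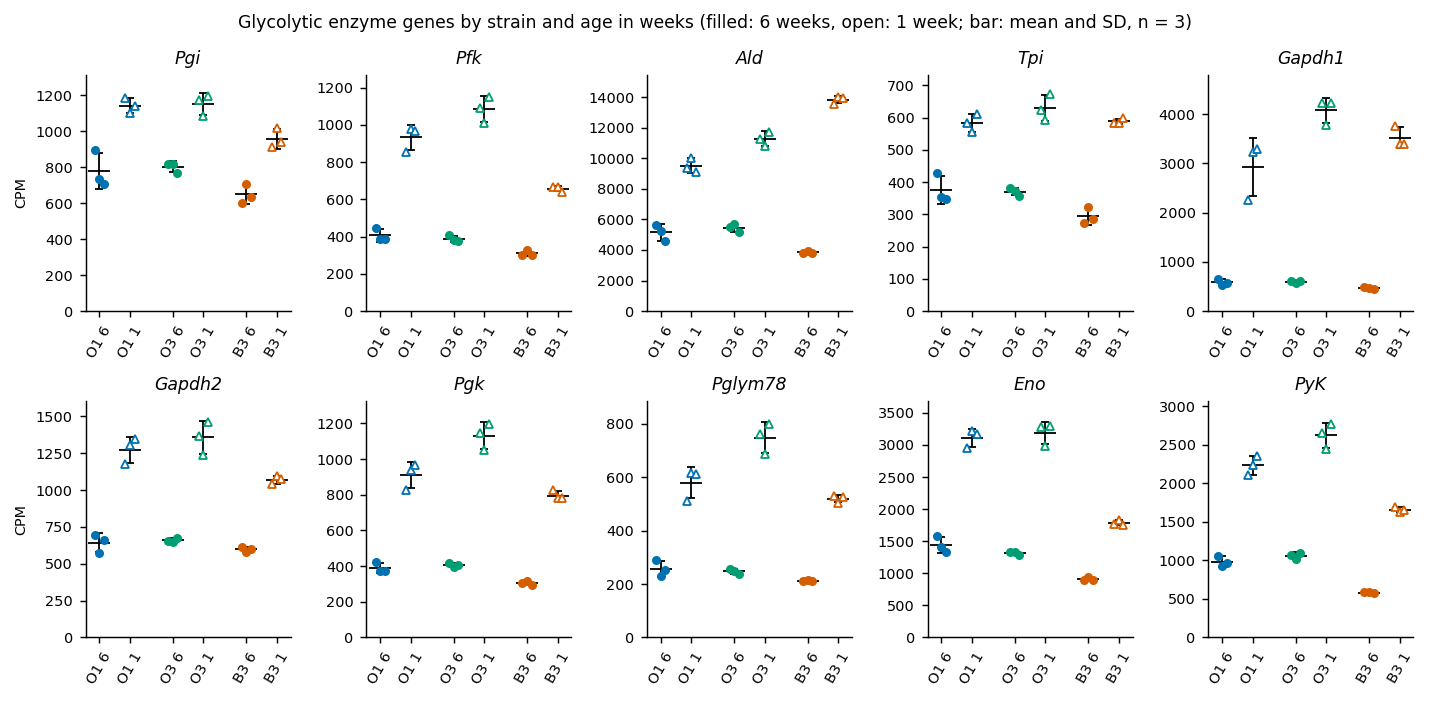
CPM of each glycolytic gene (vertical axes, from 0) in the age libraries of O1, O3 and B3 at 6 weeks (filled) and 1 week (open), with black bars for mean and SD of 3 libraries. In every panel the 6-week libraries lie below the 1-week libraries of their strain, by the largest fold for Gapdh1, with 447 to 647 CPM at 6 weeks and 2252 to 4230 CPM at 1 week over the 3 strains.

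The upper part of the pathway prepares and splits the sugar. Pgi, which interconverts glucose 6-phosphate and fructose 6-phosphate, had 897, 733 and 708 CPM at 6 weeks and 1184, 1104 and 1143 CPM at 1 week in O1. In O3 it had 820, 821 and 770 CPM at 6 weeks and 1175, 1085 and 1196 CPM at 1 week, and in B3 604, 708 and 637 CPM at 6 weeks and 912, 1021 and 942 CPM at 1 week. It was the gene of the pathway whose fitted change was smallest in each strain, with log2 fold changes of -0.55 in O1, -0.52 in O3 and -0.56 ± 0.0842 (SE) in B3. The adjusted p-values were 0.000254, 0.000277 and 9.4e-05 in the edgeR quasi-likelihood test.

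Pfk encodes phosphofructokinase, which makes the committed and strongly regulated step. It had 449, 386 and 389 CPM at 6 weeks and 854, 980 and 965 CPM at 1 week in O1, and 408, 384 and 374 CPM at 6 weeks and 1092, 1011 and 1152 CPM at 1 week in O3. In B3 it had 302, 327 and 304 CPM at 6 weeks and 664, 666 and 642 CPM at 1 week. The log2 fold changes were -1.19 in O1, -1.48 in O3 and -1.08 in B3. Pfk was thus at 0.437, 0.358 and 0.473 times its 1-week level.

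Ald, aldolase, splits fructose bisphosphate into triose phosphates and ranked first of 15682 genes by mean CPM in the age experiment. It had 5626, 5266 and 4563 CPM at 6 weeks and 9389, 10041 and 9099 CPM at 1 week in O1. In O3 it had 5500, 5678 and 5156 CPM at 6 weeks and 11287, 10778 and 11744 CPM at 1 week. In B3 it had 3808, 3956 and 3808 CPM at 6 weeks and 13544, 13987 and 13968 CPM at 1 week. B3 thus had the lowest Ald libraries at 6 weeks and the highest at 1 week, with no overlap with either other strain at either age. The log2 fold change was -0.88 ± 0.0700 in O1 (adjusted p = 3.85e-07), -1.05 ± 0.0702 in O3 (adjusted p = 5.65e-08) and -1.84 ± 0.0717 in B3 (SE; adjusted p = 1.98e-10, edgeR). Tpi, which interconverts those triose phosphates, averaged 376 ± 44.8 CPM at 6 weeks and 583 ± 27.0 CPM at 1 week in O1 (SD, n = 3). The same averages were 371 ± 11.9 and 630 ± 39.6 CPM in O3, and 294 ± 26.6 and 589 ± 7.69 CPM in B3. Its log2 fold changes were -0.63, -0.77 and -1.0 in O1, O3 and B3.

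Gapdh1 and Gapdh2 are copies of glyceraldehyde 3-phosphate dehydrogenase, the step that makes NADH. Gapdh1 had 647, 538 and 578 CPM at 6 weeks and 2252, 3235 and 3294 CPM at 1 week in O1. In O3 it had 621, 571 and 610 CPM at 6 weeks and 4227, 3783 and 4230 CPM at 1 week, and in B3 481, 467 and 447 CPM at 6 weeks and 3762, 3386 and 3401 CPM at 1 week. These were the largest fitted changes among the 10 genes in each strain, with log2 fold changes of -2.32 ± 0.122 in O1 (adjusted p = 6.1e-09), -2.76 ± 0.124 in O3 (adjusted p = 1.16e-09) and -2.92 ± 0.125 in B3 (SE; adjusted p = 4.01e-10, edgeR). Gapdh1 at 6 weeks stood at 0.201, 0.147 and 0.132 times its 1-week level in O1, O3 and B3.

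Gapdh2 moved less, with log2 fold changes of -0.99, -1.05 and -0.84 in O1, O3 and B3. Gapdh1 made up 47.8% ± 0.850 of the reads of the pair at 6 weeks and 69.3% ± 3.15 at 1 week in O1, 47.8% ± 0.862 and 75% ± 0.643 in O3, and 43.7% ± 0.961 and 76.7% ± 1.51 in B3 (SD, n = 3). The 6-week and 1-week shares did not overlap in any strain. The copies are near-identical over much of their coding sequence, so how the counting divided shared reads between them is uncertain.

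The lower steps recover ATP. Pgk, phosphoglycerate kinase, averaged 390 ± 26.9 CPM at 6 weeks and 911 ± 74.2 CPM at 1 week in O1, 406 ± 8.93 and 1131 ± 74.8 CPM in O3, and 306 ± 9.72 and 796 ± 25.1 CPM in B3 (SD, n = 3). The mutase gene Pglym78, which moves the phosphate group within phosphoglycerate, averaged 257 ± 29.8 and 580 ± 58.7 CPM in O1, 248 ± 8.96 and 748 ± 58.1 CPM in O3, and 213 ± 3.17 and 520 ± 13.4 CPM in B3, again 6 weeks before 1 week. The log2 fold changes of Pgk were -1.22, -1.48 and -1.38, and those of Pglym78 were -1.18, -1.59 and -1.29, in O1, O3 and B3.

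Eno, enolase, makes phosphoenolpyruvate. It had 1584, 1403 and 1339 CPM at 6 weeks and 2958, 3223 and 3163 CPM at 1 week in O1, and 1325, 1326 and 1290 CPM at 6 weeks and 3273, 2986 and 3292 CPM at 1 week in O3. In B3 it had 889, 948 and 895 CPM at 6 weeks and 1771, 1832 and 1758 CPM at 1 week. PyK, pyruvate kinase, closes the pathway and makes ATP. It had 1061, 925 and 969 CPM at 6 weeks and 2114, 2238 and 2354 CPM at 1 week in O1, and 1075, 1014 and 1095 CPM at 6 weeks and 2656, 2451 and 2772 CPM at 1 week in O3. In B3 it had 585, 585 and 580 CPM at 6 weeks and 1691, 1635 and 1651 CPM at 1 week. Log2 fold changes in O1, O3 and B3 were -1.11, -1.28 and -0.97 for Eno and -1.18, -1.31 and -1.51 for PyK. Both genes were lower in B3 than in either O strain at both ages, with no overlap of libraries.

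**Figure D2:**
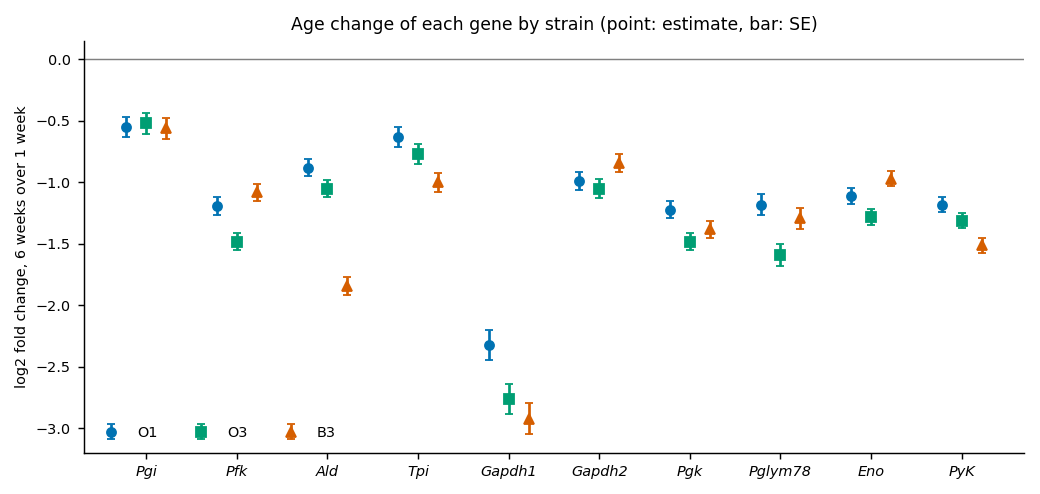
Log2 fold change (vertical axis, 6 weeks over 1 week) of each gene in O1 (circles), O3 (squares) and B3 (triangles), with the standard error of the edgeR fit as bars. Every estimate lies below 0, Gapdh1 lowest at -2.32 to -2.92, and Ald shows the widest gap between strains, at -0.88 and -1.05 in O1 and O3 against -1.84 in B3.

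Whether the age change differs between strains was tested as an interaction of age and strain. Ald, the aldolase gene, changed less in O1 than in B3, by 0.96 ± 0.0985 on the log2 scale (SE; adjusted p = 6.68e-05, edgeR), and less in O3 than in B3, by 0.79 ± 0.0984 (adjusted p = 0.000142, edgeR). In O1 the decline was also smaller than in B3 for Gapdh1 (0.60 ± 0.165, adjusted p = 0.025), PyK (0.33 ± 0.0839, adjusted p = 0.0187) and Tpi (0.37 ± 0.113, adjusted p = 0.0443). In O3 the decline was larger than in B3 for Pfk (-0.40 ± 0.0999, adjusted p = 0.0134) and Eno (-0.30 ± 0.0864, adjusted p = 0.0259). That made 4 of 10 genes with a smaller decline in O1, the other 6 lying between -0.15 and 0.15, and 1 with a smaller and 2 with a larger decline in O3. Of all genes tested, 5.98% had a positive and 8.28% a negative interaction in O1, and 10.1% and 7.59% in O3.

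The Ald difference was called under all alternatives run in both strains. The Tpi call was lost in 15 of 24 alternatives, with an adjusted p of up to 0.105. Gapdh1 lost its call when any 1 of 4 libraries was left out (adjusted p of up to 0.0655) and Eno when any 1 of 6 was (up to 0.073). Both O groups share the B3 libraries, so their interactions are not independent of each other.

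Other enzymes around the pathway were taken from lists chosen by function. Among 7 genes of hexose entry and control, 2 fell in O1, 4 fell and 2 rose in O3, and 3 fell in B3, with medians of -0.44, -0.48 and -0.52 on the log2 scale. In O3 the 4 that fell include Hex-t1 (-3.94, adjusted p = 0.0258) and Hex-t2 (-5.33, adjusted p = 0.0196, edgeR), named after their values were seen. All 12 testis markers tested were also called lower in O3, with a median of -5.95, and their part in the counts of neighbouring enzymes there was not tested. The hexokinase gene Hex-A fell in each strain, by 0.57, 0.76 and 0.52 in O1, O3 and B3. Pgm, which links glycogen to the pathway, fell by 0.50, 0.48 and 0.78. Pfrx, which encodes the enzyme that makes and removes the Pfk activator fructose 2,6-bisphosphate, was not called in any strain (-0.10, 0.11 and 0.10). The gluconeogenic fructose bisphosphatase gene fbp was lower at 6 weeks in B3 (-0.39, adjusted p = 0.0103) and higher in O3 (0.56, adjusted p = 0.00121), and in O1 it was not called (0.03). Its age change was larger in O3 than in B3 by 0.96 ± 0.157 (SE; adjusted p = 0.00104, edgeR).

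Of 14 genes of pyruvate and glycerol phosphate metabolism, 8 fell and 1 rose in O1, 11 fell and 3 rose in O3, and 8 fell in B3, with medians of -0.71, -1.53 and -1.28. In O3 the largest falls, CG3215 (-6.52) and CG7311 (-5.41), again named after their values were seen, were of the size of those of the testis markers (-6.48 to -5.53). The shuttle enzyme Gpdh, cytosolic glycerol phosphate dehydrogenase, averaged 584 ± 6.41 CPM at 6 weeks and 1383 ± 178 CPM at 1 week in O1, 641 ± 40.9 and 1843 ± 174 CPM in O3, and 332 ± 33.2 and 959 ± 120 CPM in B3 (SD, n = 3). Gpo-1, its mitochondrial partner, fell by 1.85, 2.26 and 2.05 on the log2 scale in O1, O3 and B3. Lactate dehydrogenase, listed as ImpL3, went the other way in the O strains at a far lower level. It averaged 49.0 ± 3.36 CPM at 6 weeks and 35.2 ± 7.47 CPM at 1 week in O1 (log2 0.48, adjusted p = 0.0375) and 48.1 ± 6.76 and 25.4 ± 4.83 CPM in O3 (log2 0.92, adjusted p = 0.000351). In B3 it had 40.3 ± 2.89 CPM at 6 weeks and 36.8 ± 1.93 CPM at 1 week and was not called. Pepck, which feeds gluconeogenesis, rose in O3 (log2 1.41, adjusted p = 0.00487) and was not called in O1 (0.75) or B3 (0.17).

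Pentose phosphate genes did not fall together across strains: of 6 genes, 3 rose in O3 and 3 fell in B3, and in O1 their log2 fold changes ran from -0.38 to 0.11. Zw, the gene of the entry enzyme of that branch, was not called in any strain (-0.38, 0.26 and -0.31 in O1, O3 and B3). The 9 related copies of the glycolytic genes, several of them known for testis expression, had 8 lower in O3 and 1 higher in B3 and log2 fold changes of -0.63 to 0.52 in O1, and in O3 their median of -5.23 stood beside that of the testis markers.

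Muscle markers moved with age as well. Of 16, 14 were called lower and 1 higher in O1, 15 lower in O3, and 12 lower and 2 higher in B3. Their summed level was 21262 to 22709 CPM at 6 weeks and 40896 to 46945 CPM at 1 week in O1, 18384 to 20254 and 46430 to 53488 CPM in O3, and 29530 to 32826 and 44518 to 48191 CPM in B3, and no marker was at 0 in any of these groups. The 10 glycolytic genes together stood at 49.8% ± 3.01 of the muscle marker sum at 6 weeks and 52.4% ± 0.917 at 1 week in O1, with overlapping libraries. In O3 they stood at 58.0% ± 1.56 and 54.8% ± 1.29, and in B3 at 26.0% ± 1.35 and 55% ± 2.41 (SD, n = 3). In O3 and B3 the libraries of the ages did not overlap, and the direction differed between them. The part of the muscle markers in the age change was not tested.

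Other measures also moved with age. Gut markers were called lower for 1 of 16 in O1, 3 of 16 in O3 and 13 of 16 in B3, where their sum was 3414 to 4463 CPM at 6 weeks and 7973 to 11629 CPM at 1 week. Reads outside annotated genes took 13 to 17.6% at 6 weeks and 20.8 to 27.9% at 1 week. Their part in the glycolytic result was not tested. Without the libraries with the most testis RNA (2 of O1 and 2 of O3 at 1 week), the estimates of all 10 genes stayed below 0 in O1 and in O3. Each fit then rests on 1 library at 1 week, with 3.01 CPM of testis markers. At 6 weeks these summed to 25.4 to 202 CPM in O1 and 4.31 to 12.9 CPM in O3, so in O1 the ages still differed in testis RNA.

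Levels of different genes can be compared only per length. In CPM per kb of annotated exon, Ald stood highest and Pfk lowest in every group of the series. At 6 weeks Ald had 1353 ± 142 in O1, 1429 ± 69.8 in O3 and 1013 ± 22.5 CPM per kb in B3, and at 1 week 2497 ± 127, 2959 ± 127 and 3632 ± 65.8 (SD, n = 3). Gapdh1 came next at 1 week, with 1978 ± 395 in O1, 2757 ± 174 in O3 and 2376 ± 144 CPM per kb in B3, and its libraries overlapped those of Ald in O3 only. At 6 weeks the mean of Gapdh1 stood below that of Gapdh2 in all 3 strains, without overlap in O3 and B3, and below that of PyK in the O strains. In O1 at 6 weeks the neighbours Gapdh2, PyK, Gapdh1, Eno and Pgi each overlapped the next and are not ordered. Pfk had 93.2 ± 8.09, 88.8 ± 3.93 and 71.0 ± 3.12 CPM per kb at 6 weeks, and 213 ± 15.8, 248 ± 16.2 and 150 ± 3.13 at 1 week, in O1, O3 and B3.

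The next comparison asked how the delayed-aging strains differ from their parent. At 6 weeks the glycolytic genes were higher in the O strains, with 9 of 10 called higher in O1 and 8 of 10 in O3 and all estimates above 0. Of all genes tested, 19.8% were called higher in O1 and 20% in O3 at that age. The median log2 difference was 0.35 in both strains, beside 0.03 over all genes tested. Leaving out 1 library gave 6 to 9 called genes in O1 and 7 to 9 in O3 at 6 weeks. At 1 week 6 genes were higher and 1 lower in O1, where 10.3% and 13.5% of all genes were called, and 7 were higher and 1 lower in O3, where 19.3% and 16.7% were called. In the day course 8 were higher and 1 lower in O1, against 28.6% and 27.6% of all genes, and 7 were higher and 2 lower in O3, against 31.3% and 29.4%.

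Markers of muscle and of other tissues differed between the strains too. At 6 weeks, gut markers were called higher for 16 of 16 in O1 and 14 of 16 in O3, muscle markers lower for 13 and 12 of 16, and testis markers higher for 11 of 12 in O1. At 1 week, accessory gland markers were called higher for 8 of 9 in O3 (median 4.66), with a sum of 135 to 1529 CPM in O3 and 3.28 to 51.7 CPM in B3. In the same comparison muscle markers were higher for 8 and lower for 1 of 16, fat body markers higher for 2 and lower for 5 of 8 and hemocyte markers lower for 5 of 9. In O1 at 1 week muscle markers were higher for 3 and lower for 4 of 16. Over the day muscle markers were higher for 9 and lower for 5 of 16 in O1 and higher for 4 and lower for 9 in O3, and summed to 33862 to 41638 CPM in O1, 28424 to 34510 CPM in O3 and 31793 to 38192 CPM in B3. Gut markers over the day were higher for 5 and lower for 6 of 15 in O1 and higher for 3 and lower for 9 of 15 in O3, and fat body markers were lower for 3 of 9 in O1 and 5 of 9 in O3. Reads outside annotated genes took 7.11 to 12.5% in O1, 12.0 to 16.5% in O3 and 10.2 to 11.6% in B3 over the day. Alignments that were not unique stood at 19.8 to 33.8, 30.8 to 45.4 and 24.4 to 29.4 per 100 counted reads. On both measures O3 lay above B3 without overlap. The part of these markers and reads in the strain differences was not tested.

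**Figure D3:**
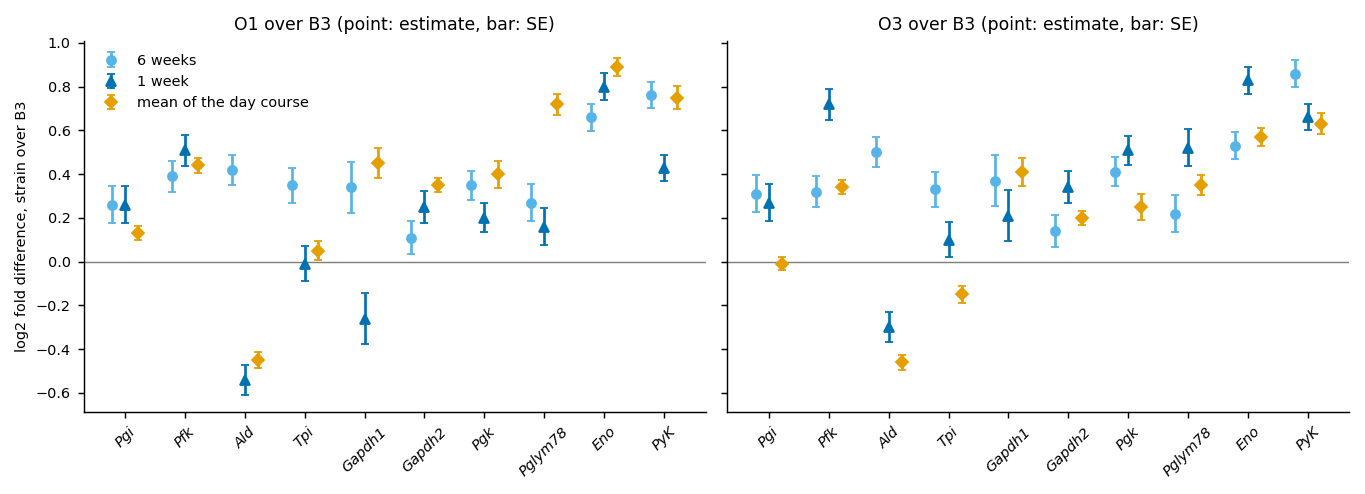
Log2 fold difference of O1 over B3 (left) and O3 over B3 (right) for each gene (vertical axis), at 6 weeks (circles), at 1 week (triangles) and as the mean of the day course (diamonds), with standard errors as bars. Eno and PyK lie above 0 in all 3 settings, and Ald lies above 0 at 6 weeks and below it in the other settings.

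Eno and PyK were higher in both O strains in all 3 settings. Over the day course Eno ran from 2964 to 4051 CPM in O1 (median 3406), from 2231 to 3209 CPM in O3 (median 2801) and from 1708 to 2019 CPM in B3 (median 1910), with no overlap between either O strain and B3. Its log2 difference from B3 was 0.66, 0.80 and 0.89 in O1 at 6 weeks, at 1 week and over the day, and 0.53, 0.83 and 0.57 in O3. PyK ran from 2048 to 2794 CPM in O1 (median 2483), 1802 to 2666 CPM in O3 (median 2194) and 1215 to 1774 CPM in B3 (median 1572), again with no overlap. Its log2 differences were 0.76, 0.43 and 0.75 in O1 and 0.86, 0.66 and 0.63 in O3. The adjusted p-values of the pair over the day were 5.35e-14 (Eno) and 1.59e-11 (PyK) in O1 and 2.35e-11 and 8.48e-11 in O3 (edgeR).

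Ald was the exception in direction. It was lower in the O strains at 1 week (-0.54 ± 0.0697 in O1 and -0.30 ± 0.0695 in O3) and over the day (-0.45 ± 0.0366 and -0.46 ± 0.0335), and higher at 6 weeks (0.42 ± 0.0696 and 0.50 ± 0.0696; SE). Over the day it ran from 8408 to 10293 CPM in O1, 7774 to 10689 CPM in O3 and 10863 to 14083 CPM in B3, so no O library reached the B3 range. Ald made up 38.9 to 42.6% of the reads of the 10 genes in O1, 39.9 to 47.2% in O3 and 55.7 to 59.8% in B3 over the day. Without the libraries of O3 at 1 week with the most testis RNA, its 1-week difference in O3 was -0.24, which rests on 1 library of O3.

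Pfk was higher in both O strains in all settings, by 0.39, 0.51 and 0.44 in O1 and 0.32, 0.72 and 0.34 in O3 at 6 weeks, at 1 week and over the day. Pgk was also called higher in all of these, by 0.35, 0.20 and 0.40 in O1 and 0.41, 0.51 and 0.25 in O3. Pglym78 reached 0.72 ± 0.0482 in O1 over the day (SE; adjusted p = 1.21e-11, edgeR), and was not called in O1 at 1 week (0.16) or in O3 at 6 weeks (0.22, adjusted p = 0.0516). Gapdh2 was higher over the day (0.35 in O1 and 0.20 in O3) and at 1 week (0.25 and 0.34), and was not called at 6 weeks (0.11 and 0.14). Gapdh1 was higher over the day (0.45 and 0.41) and at 6 weeks (0.34 and 0.37), and was not called at 1 week (-0.26 and 0.21).

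Tpi and Pgi, on either side of the split, differed least over the day. Tpi had a log2 difference of 0.05 in O1, not called, and of -0.15 in O3 (adjusted p = 0.00251), and the second call was lost without ZT18 (-0.08, adjusted p = 0.143). Pgi was higher by 0.13 in O1 (adjusted p = 0.00198) and was not called in O3 (-0.01). At 6 weeks both genes were higher in both O strains, Tpi by 0.35 and 0.33 and Pgi by 0.26 and 0.31.

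The day course and the age experiment share no library. Of the genes called at 1 week and over the day, 7 in O1 and 7 in O3, all had the same direction in both. Of those called at 6 weeks and over the day, 7 of 8 had the same direction in O1 (not Ald) and 5 of 7 in O3 (not Ald and Tpi). How often all genes called in both kept their direction was not counted, so these counts show nothing particular to glycolysis. At 6 weeks 9 genes in O1 and 10 in O3 were higher with no overlap between the strains' libraries, beside 31% and 27.5% of all genes.

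The calls at 1 week in O1 were the least stable. Pgi (0.26), Gapdh2 (0.25) and Pgk (0.20) had adjusted p-values of 0.0407, 0.0229 and 0.0458 and lost their calls when any 1 of 10, 4 and 14 libraries was left out, with adjusted p-values of up to 0.136, 0.0904 and 0.177. The count of called genes was 4 without library 1 or 3 of B3 or library 2 or 3 of O1 at 1 week, and 5 without libraries 2 and 3 of O1, which held the most testis RNA. Without that pair the Gapdh1 difference of O1 at 1 week was -0.64, which rests on library 1 of O1 alone. Library 1 had the lowest Gapdh1 of its group, 2252 CPM. Its gut marker sum was the highest, 18074 CPM against 12965 and 13931 CPM in the pair. The clock gene tim, whose level depends on the hour, was higher in the O strains by 1.22 and 1.18 at 6 weeks and by 1.57 and 1.03 at 1 week in O1 and O3, against 0.08 and 0.10 over the day course. The part of the hour in the strain differences was not tested.

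Among the neighbouring enzymes, Gpdh of the glycerol phosphate shuttle was higher in both O strains in all settings, by 0.81, 0.53 and 1.02 in O1 and 0.95, 0.94 and 0.88 in O3 at 6 weeks, at 1 week and over the day. The gluconeogenic gene fbp was lower at 1 week (-0.38 in O1 and -0.73 in O3) and over the day (-0.62 and -0.67), and not called at 6 weeks. Pfrx was lower over the day by 0.46 in O1 and 0.40 in O3. ImpL3, lactate dehydrogenase, was lower over the day by 0.60 and 0.74, opposite to Eno and PyK. Of the 6 pentose phosphate genes, 5 in O1 and 4 in O3 were lower over the day, and 4 in each were higher at 6 weeks. Hexose entry and control genes had 1 higher and 2 lower of 6 tested in each O strain over the day, with medians of 0.01 and -0.05.

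The day course also asked whether the genes vary with the hour. In O3, 8 of the 10 glycolytic genes varied over the day (all but Pgk and Pglym78), against 17% of all genes tested. In B3, 3 of 10 did, Pfk, Gapdh2 and PyK, against 11.2% of all genes, with 6 at an unadjusted p under 0.05 and 6 by DESeq2. In O1 none was called by edgeR, against 10.9% of all genes, with 2 at an unadjusted p under 0.05 and 2 by DESeq2 (Pgi and Gapdh2). These shares of all genes are those called by edgeR. No share of all genes was counted at an unadjusted p under 0.05, here or below. DESeq2 called 2033 genes in all for time in B3 and 1931 in O1, against 1382 and 1341 by edgeR. Amplitude, taken in log2 units between the time points of the highest and lowest mean, had a median over the 10 genes of 0.18 in O1 (0.08 to 0.27), 0.36 in O3 (0.26 to 0.53) and 0.24 in B3 (0.16 to 0.47). So taken, it cannot fall below 0 and grows with the spread in groups of 1 to 3 libraries. It was not computed over all genes, and the strains are not ranked by it.

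**Figure D4:**
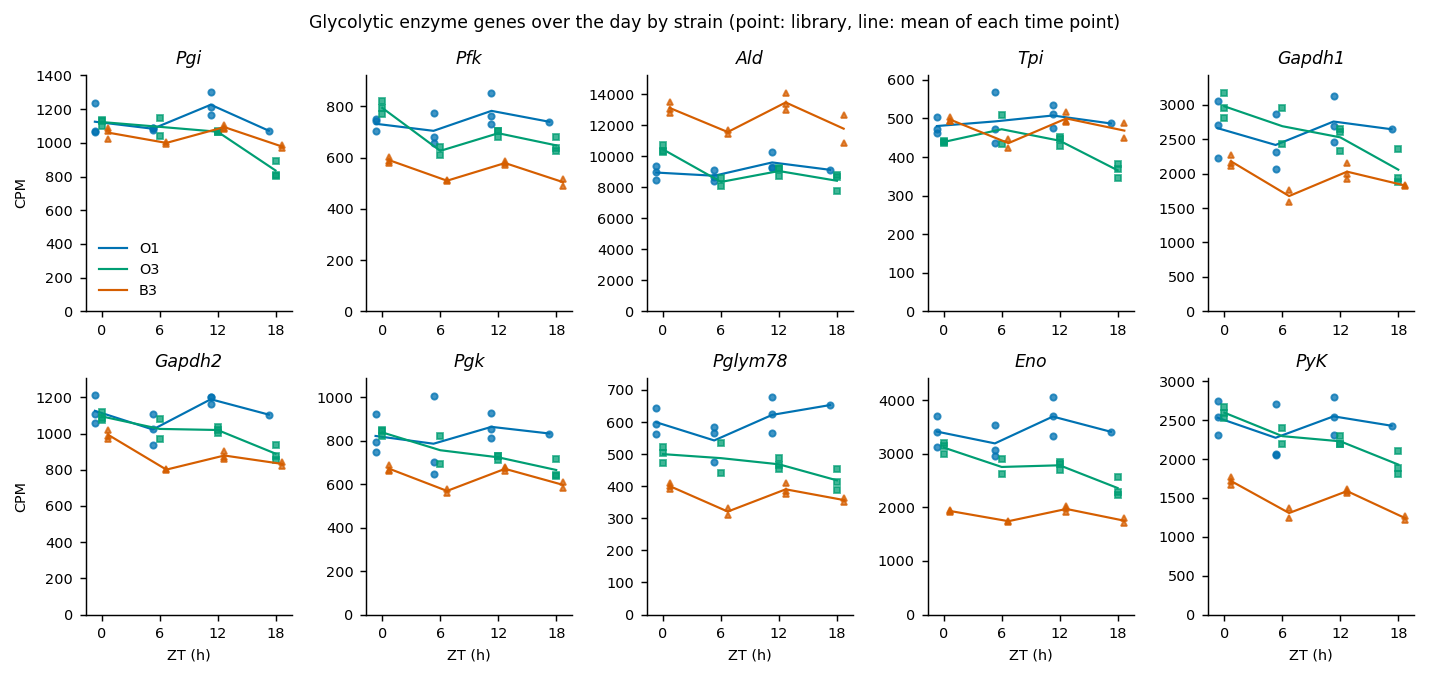
CPM of each glycolytic gene (vertical axes, from 0) at ZT0, ZT6, ZT12 and ZT18 (horizontal axis, hours) in O1, O3 and B3, with 1 point per library and lines through the means; strains are shifted sideways for sight. Ald is highest in B3 at each time, Eno and PyK are lowest in B3, and O3 is at its lowest at ZT18 for 8 of the genes.

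In O3, 9 genes were highest at ZT0 and 8 were lowest at ZT18. How many of all genes were highest or lowest at each time was not counted, here or in the groups below. The 10 genes also varied together within groups, with a median r of 0.731. Pgi had 1102, 1137 and 1131 CPM at ZT0, 1041 and 1149 at ZT6, 1069, 1064 and 1065 at ZT12, and 894, 808 and 806 CPM at ZT18 (adjusted p = 2.39e-05, edgeR). Its ZT18 libraries lay below all other O3 libraries. Gapdh1 had the widest amplitude of the 10, 0.53, with 2809, 2956 and 3165 CPM at ZT0 and 2355, 1882 and 1935 CPM at ZT18 (adjusted p = 0.0184). Eno had 2996, 3141 and 3209 CPM at ZT0 and 2558, 2231 and 2293 CPM at ZT18 (adjusted p = 0.00377). Pfk and Ald were instead lowest at ZT6, and Tpi was highest there (472 ± 52.0 CPM, SD, n = 2). Muscle markers in O3 summed to 34163 to 34510 CPM at ZT0 and 28424 to 31502 CPM at ZT18. Gut markers there summed to 11798 to 12338 CPM and 8606 to 10358 CPM. The 10 genes together stood at 69.7% ± 1.82 of the muscle marker sum at ZT0 and 62.8% ± 1.22 at ZT18 (SD, n = 3). The part of these markers in the daily course was not tested.

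In B3, 6 genes were highest at ZT0 and 4 at ZT12, and 7 were lowest at ZT6 and 3 at ZT18. PyK had 1774, 1663 and 1712 CPM at ZT0, 1366 and 1245 at ZT6, 1618, 1586 and 1558 at ZT12, and 1215 and 1266 CPM at ZT18 (adjusted p = 0.00425). Its libraries at ZT6 and ZT18 all lay below those at ZT0 and ZT12. Gapdh2 had 970, 987 and 1021 CPM at ZT0 and 797 and 805 CPM at ZT6 (adjusted p = 0.00597). Pfk had 604, 588 and 579 CPM at ZT0 and 518 and 491 CPM at ZT18 (adjusted p = 0.0258). In O1, where no glycolytic gene was called for time by edgeR, 9 genes had their highest mean at ZT12 and 8 their lowest at ZT6. Libraries of the highest and lowest time point lay apart for only 4 genes there.

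The difference in time course between strains was itself not called for any glycolytic gene by edgeR. The interaction of time with O1 against B3 had an adjusted p of at least 0.285 (1.4% of all genes called, 1 glycolytic gene at an unadjusted p under 0.05 and 0 by DESeq2). The interaction with O3 had an adjusted p of at least 0.0805 (1.55% of all genes by edgeR, 2 glycolytic genes at an unadjusted p under 0.05). DESeq2 called 2 glycolytic genes for it, Pgi and Tpi. Over all genes DESeq2 called 545 for the interaction with O1 and 732 for that with O3, against 172 and 190 by edgeR. The interaction with O3 was called for 2 genes without library 1 of O3 at ZT6, and for 1 without library 1 of O1 at ZT0 or library 2 of O1 at ZT6. The number called for time of day in O1 was 4 without library 2 at ZT6, 2 without library 1 at ZT0, and 1 without library 1 or 3 of O3 at ZT6. In O1 ZT18 rests on 1 library, which is assumed to vary like the others.

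The last comparison asked what muscle expression of timeless does to the pathway. Over the day 5 of 10 glycolytic genes were called lower in mhc>timeless and all 10 estimates were below 0, against 9.75% of all genes lower and 8.68% higher. The changes were small, with log2 differences of -0.02 to -0.13 and a median of -0.08, beside 0.01 over all genes tested. Eno averaged 1681 ± 23.3, 1662 ± 56.1, 1804 ± 46.9 and 1603 ± 36.1 CPM in mhc>timeless at ZT0, ZT6, ZT12 and ZT18, against 1822 ± 65.5, 1757 ± 99.7, 1981 ± 87.5 and 1814 ± 95.5 CPM in mhc (SD). Its log2 difference was -0.13 ± 0.0250 (SE; adjusted p = 0.00157, edgeR), or 0.915 times the mhc level.

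Pfk ran from 429 to 500 CPM in mhc>timeless (median 448) and from 450 to 527 CPM in mhc (median 496), with a log2 difference of -0.13 ± 0.0299 (adjusted p = 0.00622). Pgi differed by -0.08 ± 0.0173 (adjusted p = 0.00512), Tpi by -0.12 ± 0.0347 (adjusted p = 0.0202) and Gapdh1 by -0.10 ± 0.0348 (adjusted p = 0.0482). The ranges of the genotypes overlapped for each of these genes, and the Gapdh1 call was lost when any 1 of 17 libraries was left out, with an adjusted p of up to 0.104. Ald, the most abundant, ran from 6231 to 7615 CPM in mhc>timeless and from 5988 to 8231 CPM in mhc and was not called (-0.02). Gapdh2 (-0.04), Pgk (-0.03), Pglym78 (-0.09) and PyK (-0.05) were not called either.

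**Figure D5:**
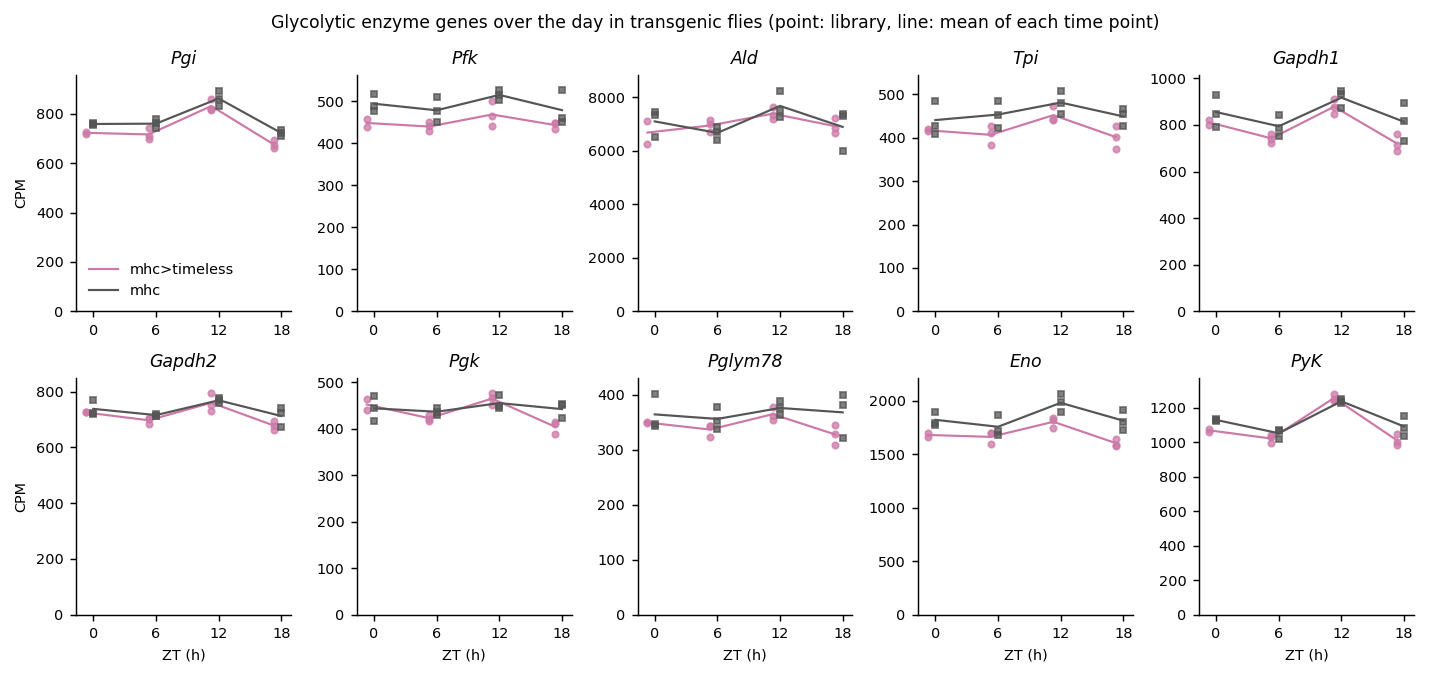
CPM of each glycolytic gene (vertical axes, from 0) at ZT0, ZT6, ZT12 and ZT18 (horizontal axis, hours) in mhc>timeless (circles) and mhc (squares), with 1 point per library and lines through the means; genotypes are shifted sideways for sight. Both genotypes have their highest mean at ZT12 for all 10 genes, which was not counted over all genes. The mhc>timeless line lies below the mhc line at all 4 times for Pgi, Pfk, Tpi, Gapdh1, Gapdh2, Pglym78 and Eno.

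Depth differed with genotype. mhc>timeless libraries held 124 to 170 M counts, and mhc libraries held 53.1 to 71.9 M at ZT0, ZT6 and ZT12 and 148 to 168 M at ZT18. At ZT18, where depths were closest, no glycolytic gene was called, against 2.66% of all genes. An unadjusted p under 0.05 was reached there by 7, a count with no share of all genes to set beside it. The log2 differences there had a median of -0.12, with -0.18 for Eno (adjusted p = 0.0577). At ZT0, ZT6 and ZT12 none was called either, against 3.69%, 5.35% and 6.44% of all genes. At each of these times 2 had an unadjusted p under 0.05, again without a share of all genes. Muscle markers summed to 29997 to 34538 CPM in mhc>timeless and 29864 to 33762 CPM in mhc, hemocyte markers were higher for 7 of 9 and fat body markers lower for 4 and higher for 1 of 9. Accessory gland markers were higher for 4 of 10 (median log2 difference 4.09) at a low level, with a sum of 0.132 to 67.9 CPM in mhc>timeless and 0.0768 to 11.2 CPM in mhc. Their part in the difference was not tested. Of the fixed neighbouring genes, Gpdh (-0.11, adjusted p = 0.0105) and Hex-A (-0.10, adjusted p = 0.0123) were lower, and Gpo-1, ImpL3, Pfrx, Pgm, fbp, Zw, Hex-C and Pepck were not called.

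Time of day was called for 5 glycolytic genes in mhc>timeless (Pgi, Gapdh1, Gapdh2, Pgk and PyK), against 19.1% of all genes, and for 2 in mhc (Pgi and PyK), against 22.6%. In mhc the count was thus no higher than the share of all genes. The mhc libraries at ZT18 held 148 to 168 M counts, against 53.1 to 71.9 M at the other times. The part of depth in the mhc time course was not tested. By DESeq2 6 were called in mhc>timeless and 5 in mhc, the same numbers that had an unadjusted p under 0.05 by edgeR. Over all genes DESeq2 called 3379 in mhc>timeless and 3331 in mhc, against 2425 and 2871 by edgeR. The edgeR count was 3 in mhc>timeless without library 2 at ZT12 and 4 in mhc without library 2 at ZT18. PyK had 1063 and 1078 CPM at ZT0, 1032, 1041 and 994 at ZT6, 1283, 1241 and 1251 at ZT12, and 1005, 1050 and 984 CPM at ZT18 in mhc>timeless (adjusted p = 1.72e-05). In mhc it had 1126, 1128 and 1138 CPM at ZT0, 1068, 1071 and 1021 at ZT6, 1251, 1239 and 1227 at ZT12, and 1083, 1156 and 1038 CPM at ZT18 (adjusted p = 0.000852). The ZT12 libraries were highest in both genotypes with no overlap with other times. Pgi had its highest mean at ZT12 too, 832 ± 23.9 CPM in mhc>timeless and 862 ± 30.6 CPM in mhc (SD, n = 3). No time course differed between genotypes by edgeR (adjusted p of at least 0.28; 0 genes at an unadjusted p under 0.05 and 0 by DESeq2), where 0.126% of all genes were called. The median amplitude was 0.17 in mhc>timeless and 0.15 in mhc.

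How far the genes varied together was described over all libraries of an experiment and within its groups. Over the 18 age libraries, Pearson's r of log2 CPM between pairs of the 10 genes had a median of 0.956, with a lowest value of 0.789 for Ald and Eno and a highest of 0.995 for Pgk and Pglym78. Over the 31 libraries of the strain day course the median was 0.703, and Ald and Eno had -0.641. Over the 23 transgenic libraries the median was 0.756, with 0.406 for Ald and Tpi at the low end. As deviations from the group means, r had a median of 0.676 in the age libraries (0.075 for Pgi and Gapdh1 to 0.913 for Pfk and Eno), 0.731 in the strain day course (0.299 to 0.944) and 0.557 in the transgenic flies (0.174 for Pgi and Ald to 0.941). These values are descriptions over libraries that share strains and ages.

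The genes most like the mean of the 10 over the age libraries, among 4536 other genes of sufficient level, were CG11876 (r = 0.998), which is listed with the pyruvate genes, glycogen phosphorylase GlyP (0.997), CG9090 (0.997), CG5261 (0.996) and sesB (0.996), the adenine nucleotide carrier of mitochondria. Over the strain day course they were GlyP (0.965), CG3731 (0.957), CG5214 (0.938), CG6020 (0.937) and CG4169 (0.937), among 4287 genes. Over the 23 transgenic libraries they were Gpdh (0.902), Taz (0.884), CG9399 (0.880), Mdh1 (0.872) and CG5261 (0.866), among 4637 genes.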

How the data were processed

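For each library the authors deposited a list of raw read counts per gene. Per the submitters' processing notes, BWA, STAR, HTSeq and the build dm3 were used, in roles and versions they do not state. The gene annotation and strandedness of counting are likewise not given in the sources used. Ald, Eno, Pgk and Pglym78 overlap genes on the opposite strand by 338, 362, 65 and 6 bases and may share reads with them. Rows that name no gene (reads in no feature took 7.11 to 27.9%) were left out.

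The 10 genes, the lists and the alternatives were chosen with earlier results of these data known. All 10 genes, 10 fixed neighbouring genes and the 5 genes most like the mean of the 10 (mean log2 CPM of at least 5) are named. Other list genes enter only by count, apart from Hex-t1, Hex-t2, CG3215 and CG7311, which were named after their values were seen. Tests were edgeR 4.0.16 quasi-likelihood F-tests in R 4.3.3, 1 model per experiment (1 mean for each group), TMM scaling, filterByExpr and Benjamini-Hochberg adjustment over 12445, 12295 and 12727 genes (age, day course, transgenic). Day-course contrasts weight the 4 time points equally, and time of day was tested jointly over them. log2 CPM used a prior count of 0.5. DESeq2 1.42.0, RLE factors, library totals, no filter, a replicate block and leaving out each library were alternatives. So was leaving out the libraries of O1 or of O3 at 1 week with the most testis RNA. Tests were checked on simulated data. Exon lengths come from a Release 6 annotation, so no coordinates are given.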

Additional observations from a re-analysis of the deposited data

Results flagged for a closer look

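The age change of 6 glycolytic genes differed between a delayed-aging strain and B3 by the interaction test of edgeR, given here on the log2 scale as the O strain minus B3. In O1 the values were 0.96 for Ald, 0.60 for Gapdh1, 0.37 for Tpi and 0.33 for PyK, all smaller declines than in B3. In O3 they were 0.79 for Ald, a smaller decline, and -0.40 for Pfk and -0.30 for Eno, larger declines. Over all genes tested, 5.98% were called with a positive and 8.28% with a negative interaction in O1, and 10.1% and 7.59% in O3. The calls of Tpi, Gapdh1 and Eno were lost under some of the alternatives, as given above.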

How the results depend on the processing

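The age result was the most stable: all 10 genes were called lower in O1, O3 and B3 under every alternative run. With library totals in place of TMM factors, 59.4% of genes called in the interaction of age with O1 were higher, beside 41.9%, and 62.9% between the transgenic genotypes, beside 47.1%.

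Counts of called glycolytic genes that moved by over 1.5 times are as follows, and the cause was not tested. Leaving out 1 library gave 4 to 7 for O1 against B3 at 1 week (7 with all libraries), 2 to 4 for the interaction of age with O1 (4; 2 without library 1 of B3 at 1 week, library 3 of B3 at 6 weeks or library 1 of O1 at 6 weeks), 0 to 4 for time in O1 (0), 0 to 2 for time with O3 (0), 2 to 4 for time in mhc (2; 4 without library 2 at ZT18) and 3 to 5 for time in mhc>timeless (5; 3 without library 2 at ZT12). DESeq2 gave 6 for time in B3 (3 by edgeR), 2 for time in O1 (0), 2 for time with O3 (0) and 5 for time in mhc (2). Over all genes it called 2033, 1931, 732 and 3331 in these tests, against 1382, 1341, 190 and 2871 by edgeR. At ZT18 alone 0 were called between the transgenic genotypes (5 over the day).

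Of the values whose sign reversed, none was called with all libraries. Tpi in O1 against B3 at 1 week (-0.01) was 0 with RLE factors and with DESeq2 and -0.05 to 0.02 without single libraries (0.02 without library 2 of O1). Pglym78 there (0.16) was -0.02 without the libraries of O1 at 1 week with the most testis RNA. In the interaction with O1, Pgi (0.01) ran from -0.10 to 0.08 when 1 library was left out (-0.10, -0.04, -0.04, -0.01 and 0 where reversed). Without the libraries of O1 at 1 week with the most testis RNA, Pgi was -0.04 and Pfk (-0.11) was 0.02. In the interaction with O3, Pgi (0.04) ran from -0.01 to 0.11 without single libraries. It was -0.01 without the libraries of O3 at 1 week with the most testis RNA. Over the day Pgi in O3 (-0.01) was 0.02 with library totals, 0.06 without ZT18 and -0.03 to 0.01 without single libraries. Ald between the transgenic genotypes (-0.02) was 0.01 at ZT18 alone and -0.04 to 0 without single libraries (0 without library 3 of mhc>timeless at ZT0).

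Pairing of libraries by replicate number was not evident, though the check cannot exclude it. Deviations from group means of same-numbered libraries correlated at -0.783 to 0.817 in the age experiment (median -0.086, other pairs -0.0144). The range was -0.518 to 0.541 in the strain day course (median 0.0135, other pairs -0.00417) and -0.418 to 0.643 in the transgenic flies (median 0.0101, other pairs 0.0077). In these, 6 of 18, 12 of 30 and 10 of 23 libraries correlated best with their own number. With a replicate block, 5 genes were called in O1 against B3 at 1 week, 3 in the interaction with O1 and 3 for time in mhc, and the other counts were those without it.

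Over all genes, calls were fewer without the libraries with testis RNA for age in O3 (2333, against 6238), O3 against B3 at 1 week (1806, against 4475) and age with O3 (1049, against 2196), and more by DESeq2 for time with O1 (545, against 172), with O3 (732, against 190) and with timeless (609, against 16). Library totals gave 4743 calls for age in O1, against 2830. Leaving out library 1 of O3 at ZT6 gave 3463 calls for time in O3 (2093) and 1109 for time with O3 (190), and leaving out library 3 of O3 at ZT6 gave 1372 for time in O3. Leaving out library 2 of O3 at 1 week gave 4143 calls for age in O3 and 2957 for O3 against B3 at 1 week, which had 2937 and 2706 without library 2 or 3 of B3. Leaving out 1 library at a time took the interaction of time with O1 down to 86 calls, that with O3 down to 98 and that with timeless to between 2 and 49. With the replicate block the interaction with O1 had 105 calls. At ZT18 alone 339 genes were called between the transgenic genotypes, against 2346. Without the only O1 library at ZT18, the O1 day comparisons could not be fitted. The libraries with testis RNA named here are libraries 2 and 3 of O1 and 1 and 2 of O3 at 1 week, which held the most. Others with some, such as those of O1 at 6 weeks (25.4 to 202 CPM), stayed in. Leaving out either pair left 1 library in its group, which is assumed to vary like the others.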
